A study of Mus musculus with 12 samples.

Results

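The rows analysed were the mature arms of miR-221 and miR-222, a pair of small regulatory RNAs processed from neighbouring hairpins. They were chosen by name, and 4 of the 386 listed rows qualified: miR-221-3p, miR-221-5p, miR-222-3p and miR-222-5p. Small RNA had been sequenced from the livers of 12 wild-type C57BL/6 male mice aged 84 postnatal days, which were killed fasted. The 4 groups, with 3 libraries each, crossed the diet of the mother with that of her son. OO had an obesogenic-fed mother and an obesogenic-fed son, OC an obesogenic-fed mother and a control-fed son, CO a control-fed mother and an obesogenic-fed son, and CC a control-fed mother and a control-fed son. The control chow held 7% simple carbohydrates and 3% lipids. The obesogenic diet held 10% and 20% and was given with sweetened condensed milk. Dams kept their diet until weaning, litters were set to 6 pups on day 3, and sons were weaned on day 21.

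The mother and litter of each son are not named in the labels, so litter mates could be present, and p-values measure only the spread between these libraries. A number in the sample titles is common to OC replicate 2 and OO replicate 3 alone, and its meaning is not stated. Title prefixes differ between the maternal diets without exception, so a factor behind the prefix and maternal diet cannot be told apart. The last letter of the title is the same for all 6 control-fed sons and for only 1 of the obesogenic-fed sons, so it largely follows the son's diet, and its part was not tested. Values are CPM, reads scaled by the authors to a fixed total per library. Depth here is the read total behind this scaling, recovered from the values, and the number of all reads sequenced is not known from it. It ran from 5.45 to 22.2 M reads (M, mega), with a mean of 14.7 ± 6.00 in OO, 18.8 ± 2.97 in OC, 11.2 ± 5.04 in CO and 9.94 ± 3.02 in CC (SD, n = 3 each). In whole liver, fewer cells of a type and less RNA per cell cannot be told apart.

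A miRNA hairpin yields a duplex of 2 arms, named 5p and 3p for their side of the hairpin. One arm is usually loaded into Argonaute and the other is mostly degraded. The loaded arm finds its messages through the seed, bases 2 to 8 from its 5′ end. In miR-221 and miR-222 the main arm is the 3p arm, and both are best known for repressing the cell-cycle inhibitors Cdkn1b and Cdkn1c and the receptor Kit. In liver they have been studied in hepatocellular carcinoma and in the activation of stellate cells during fibrosis, and in other tissues as miRNAs of vessel walls.

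In RefSeq on GRCm38.p6, both hairpins lie on the minus strand of chromosome X, miR-221 at chrX:19146294-19146388 and miR-222 at chrX:19146893-19146971, with 504 bases between them. The GENCODE vM21 annotation holds no other gene that overlaps them, and the nearest is the noncoding transcript Gm14636, 10010 bases away. The hairpins are shown because they carry both arms, with the mature sequences RefSeq gives in capitals.
Mir221: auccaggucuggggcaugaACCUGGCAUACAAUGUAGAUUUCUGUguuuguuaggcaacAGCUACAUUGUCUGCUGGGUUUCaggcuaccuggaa
Mir222: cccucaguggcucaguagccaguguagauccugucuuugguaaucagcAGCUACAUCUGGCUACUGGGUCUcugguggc

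The mature arms are printed with the seed in capitals, since the seed is what the main arms share. RefSeq sequences were found for 3 of the 4 members, and miR-222-5p is named only.
miR-221-3p: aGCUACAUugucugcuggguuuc
miR-222-3p: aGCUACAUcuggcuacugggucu
miR-221-5p: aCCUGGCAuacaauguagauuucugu
The 3p arms, of 23 bases each, were identical over the first 8 bases and so shared the seed GCUACAU. Counted from 1 at the 5′ end, with the base of miR-221-3p first, the first difference was U9C, and 12 of the last 15 bases differed. The seed of miR-221-5p, CCUGGCA, was another one. Of the other mature mouse miRNAs in the RefSeq table only miR-1928, from chromosome 1, had the seed of the 3p arms, and it was not analysed here.

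The 4 arms covered a wide range of levels. Averaged over the 12 libraries, miR-221-3p stood at 396 ± 39.5 CPM and ranked 76 of 386, and miR-222-3p stood at 137 ± 25.8 CPM and ranked 123 (SD, n = 12). The minor arms were far lower, miR-221-5p at 18.2 ± 2.64 CPM (rank 217) and miR-222-5p at 4.51 ± 1.52 CPM (rank 316). Together the family held between 504 and 689 CPM in a library. The reads behind each value ranged from 1961 to 9497 for miR-221-3p, from 669 to 3098 for miR-222-3p, from 110 to 458 for miR-221-5p and from 38 to 84 for miR-222-5p. Counting error alone was therefore 1.03 to 2.26% for miR-221-3p and 10.9 to 16.2% for miR-222-5p. The spread between libraries of 1 group, as a coefficient of variation, was 9.86% for miR-221-3p, 11.1% for miR-221-5p, 13.7% for miR-222-3p and 25.2% for miR-222-5p. For comparison, the median over all rows was 18.1%. Rows within 2-fold of each member's level had medians of 13.8% for miR-221-3p, 17.1% for miR-221-5p, 14.9% for miR-222-3p and 25.6% for miR-222-5p.

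**Figure D1:**
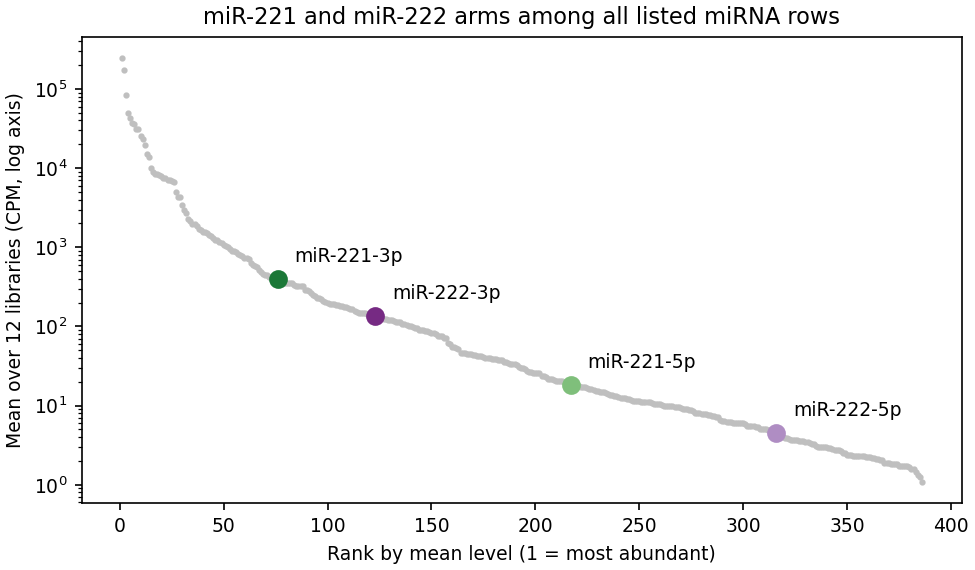
Mean level over the 12 libraries (CPM, log axis) of each of the 386 rows, ordered from the most to the least abundant. The 3p arms of miR-221 and miR-222 rank 76 and 123, the 5p arms 217 and 316.

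The son's own obesogenic diet went with higher values of miR-222-3p, the main arm of miR-222, but the difference did not pass the test. It measured 139, 144 and 207 CPM in OO livers, 120, 129 and 128 CPM in OC livers, 149, 154.6 and 123 CPM in CO livers, and 113, 127 and 112 CPM in CC livers, each listed by replicate number. All 3 OO libraries lay above all 3 OC libraries, as was so for 10.4% of all rows, whereas CO and CC overlapped. OO replicate 3 stood highest of the 12. Over both maternal diets the mean was 153 ± 28.7 CPM over the 6 obesogenic-fed sons and 121 ± 7.47 CPM over the 6 control-fed sons (SD), a ratio of 1.24 on the scale of CPM + 1. The log2 change was 0.31 (SE 0.113, 95% interval 0.06 to 0.56), with a limma unadjusted p of 0.0181 and an adjusted p of 0.241. Without OO replicate 3 the log2 change was 0.22, with a limma adjusted p of 0.353.

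miR-221-5p, the minor arm of miR-221, was also higher on average in obesogenic-fed sons without passing. It measured 17.0, 21.3 and 22.8 CPM in OO livers, 15.6, 12.8 and 17.2 CPM in OC livers, 18.0, 19.6 and 20.2 CPM in CO livers, and 18.2, 17.0 and 18.5 CPM in CC livers. The lowest of the 12 values was that of OC replicate 2, and the obesogenic-fed and control-fed libraries overlapped under either maternal diet. The means were 19.8 ± 2.13 CPM over obesogenic-fed sons and 16.5 ± 2.09 CPM over control-fed sons (SD, 6 each). That was a log2 change of 0.25 (SE 0.108, limma unadjusted p = 0.0404, adjusted p = 0.317).

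The most abundant member, miR-221-3p, differed little by the son's diet. Its values were 384, 441 and 455 CPM in OO, 424, 360 and 362 CPM in OC, 374, 467 and 360 CPM in CO, and 389, 370 and 369 CPM in CC. The groups overlapped throughout, and the highest library was CO replicate 2. The log2 change between obesogenic-fed and control-fed sons was 0.12 (SE 0.0908, limma adjusted p = 0.583), with a 95% interval of -0.08 to 0.32, and it was 0.06 without CO replicate 2. miR-222-5p had a log2 change of 0.15 (SE 0.170, limma adjusted p = 0.741) for the son's diet, which was 0.05 without CO replicate 3, 0.25 without CO replicate 2 and 0.09 with depth in the model.

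In the average over maternal diets 0 of 4 members passed limma's test at an adjusted p under 0.05, and 0.777% of all rows did. At an unadjusted p under 0.05 there were 2 of 4 members, miR-222-3p and miR-221-5p, and 14.8% of all rows. The log2 change was positive for each of the 4, and the median over all rows was -0.02. Obesogenic-fed and control-fed sons did not separate for any member, whereas 0.518% of all rows lay wholly higher and 2.07% wholly lower.

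**Figure D2:**
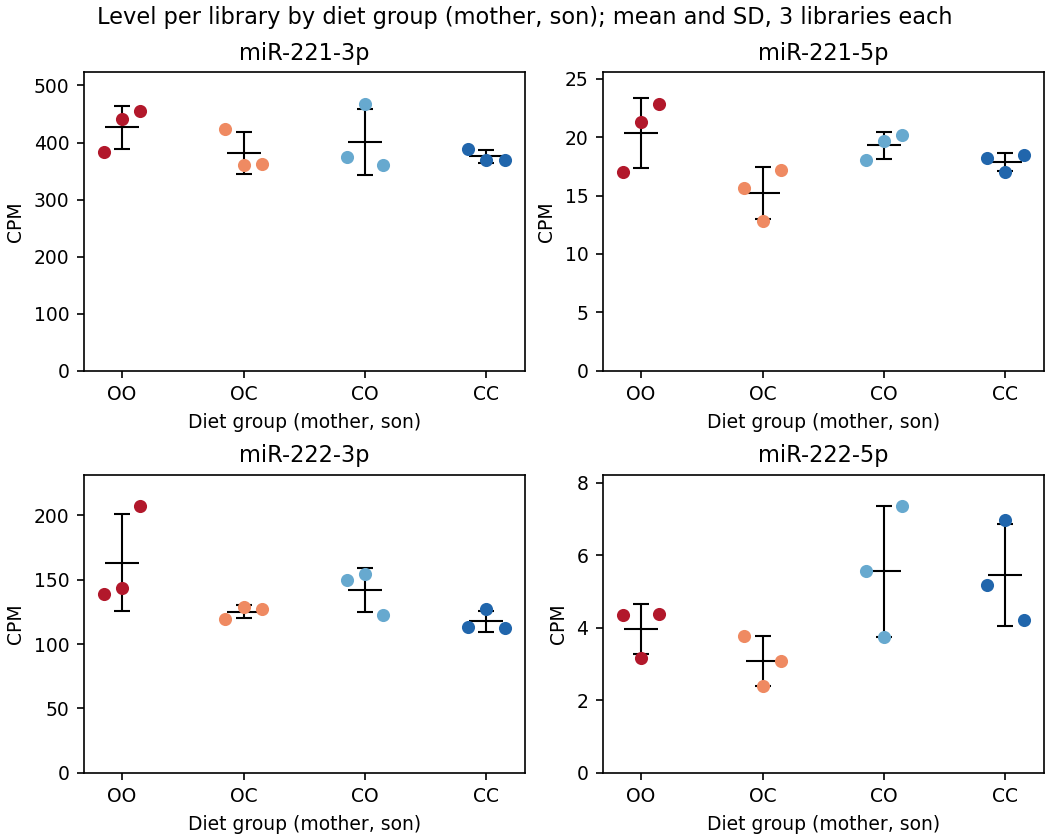
Level of each arm in CPM, 1 point per library, in the 4 groups named by the mother's and then the son's diet (O obesogenic, C control). Horizontal bars give the mean and whiskers the SD over 3 libraries. miR-222-3p lies highest in OO, with 1 library at 207 CPM, and miR-222-5p lies lowest in OC.

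Within each maternal diet the same contrast rested on 3 libraries against 3. In sons of obesogenic-fed mothers, OO against OC, the log2 change was 0.36 for miR-222-3p (SE 0.160) and 0.40 for miR-221-5p (SE 0.153), and the limma adjusted p was 0.673 for each. It was 0.16 for miR-221-3p and 0.29 for miR-222-5p. Here 0 of 4 members passed, against 0.518% of all rows, and 2 of 4 had a limma unadjusted p under 0.05, against 7.25% of all rows. The OO and OC libraries did not overlap for miR-222-3p, with OO higher, as was the case for 10.4% of all rows, while 5.18% lay wholly lower. When OO replicate 3 was left out, miR-222-3p had a log2 change of 0.18 between these groups (limma adjusted p = 0.984).

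In sons of control-fed mothers, CO against CC, the log2 change of miR-222-3p was 0.27 (SE 0.160, limma adjusted p = 0.477), with group means of 142.3 ± 17.1 CPM in CO and 118 ± 8.31 CPM in CC (SD, n = 3 each). It was 0.08 for miR-221-3p, 0.10 for miR-221-5p and 0.01 for miR-222-5p. Members passing numbered 0 of 4, against 0.777% of all rows, and 0 of 4 had a limma unadjusted p under 0.05, against 16.3% of all rows. The CO and CC libraries overlapped for each of the 4, whereas 5.7% of all rows lay wholly higher and 16.3% wholly lower. The test of whether the son's diet acted differently by maternal diet gave a difference of log2 changes of 0.09 for miR-222-3p (SE 0.227, 95% interval -0.41 to 0.58) and 0.29 for miR-221-5p (SE 0.216). For miR-221-3p and miR-222-5p it was 0.08 and 0.28. TMM and median-of-ratios factors turned the sign for both 3p arms. None of the 4 passed this interaction test, where 0% of all rows passed, and 0 of 4 had a limma unadjusted p under 0.05, against 3.89% of all rows.

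The mother's obesogenic diet went with lower values of miR-222-5p, the least abundant member, which did not pass either. This arm measured 4.35, 3.16 and 4.39 CPM in OO livers, 3.79, 2.38 and 3.07 CPM in OC livers, 5.57, 3.74 and 7.34 CPM in CO livers, and 5.19, 6.96 and 4.20 CPM in CC livers. All 3 OC libraries lay below all 3 CC libraries, as was so for 4.4% of all rows, while OO and CO overlapped. Over both offspring diets the mean was 3.52 ± 0.792 CPM with obesogenic-fed and 5.50 ± 1.44 CPM with control-fed mothers (SD, n = 6 each). The log2 change on the scale of CPM + 1 was -0.51 (SE 0.170, 95% interval -0.88 to -0.14, limma unadjusted p = 0.0112, adjusted p = 0.579), and this scale understates the change of so low a row. Among all rows its p ranked 7 of 386 in this comparison.

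The other members showed no difference of that size by the mother's diet. The log2 change was 0.06 for miR-221-3p (SE 0.0908), -0.08 for miR-221-5p (SE 0.108) and 0.14 for miR-222-3p (SE 0.113), with limma adjusted p of 0.791, 0.772 and 0.704. That for miR-221-3p was negative, at -0.02, with TMM factors, -0.01 with median-of-ratios factors and -0.05 with depth in the model. That for miR-222-3p was 0.05 without OO replicate 3. Of the members 0 of 4 passed, against 0% of all rows, and 1 of 4, miR-222-5p, had a limma unadjusted p under 0.05, against 6.99% of all rows. No member separated the maternal diets, as 0.777% of all rows did with higher and 0% with lower values.

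In control-fed sons, OC against CC, the log2 change of miR-222-5p was -0.65 (SE 0.240, 95% interval -1.18 to -0.13), the smallest unadjusted p of all rows at 0.0193 but a limma adjusted p of 0.9999. Members passing were 0 of 4, against 0% of all rows, and 1 of 4 had a limma unadjusted p under 0.05, against 1.04% of all rows. Not overlapping, with OC lower, were 4.4% of all rows, and with OC higher likewise 4.4%. miR-221-5p stood at 15.2 ± 2.23 CPM in OC and 17.9 ± 0.777 CPM in CC (SD, n = 3 each, log2 change -0.23, limma adjusted p = 0.9999), with a log2 change of -0.12 without OC replicate 2. For miR-221-3p and miR-222-3p the log2 change was 0.02 and 0.09. In obesogenic-fed sons, OO against CO, the log2 change of miR-222-5p was -0.37 (SE 0.240, limma adjusted p = 0.405), against a median over all rows of 0.13. Without CO replicate 3 it was -0.18, without CO replicate 2 it was -0.59, and with depth in the model -0.21. The change was 0.10 for miR-221-3p and 0.07 for miR-221-5p, both of which turned negative with TMM and median-of-ratios factors, and 0.18 for miR-222-3p, or -5.16e-04 without OO replicate 3. In that comparison 0 of 4 members passed, against 0% of all rows, and 0 of 4 had a limma unadjusted p under 0.05, against 12.2% of all rows. No member had separate OO and CO libraries, whereas 16.3% of all rows lay wholly higher and 2.85% wholly lower.

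Depth differed by maternal diet, so the level of miR-222-5p was also set against it. The shallowest library, CO replicate 3 at 5.45 M reads, had 7.34 CPM of miR-222-5p from 40 reads with a 95% exact Poisson interval of 5.25 to 10.0 CPM. The deepest, OC replicate 1 at 22.2 M reads, had 3.79 CPM from 84 reads, with an interval of 3.02 to 4.69 CPM. The lowest level, 2.38 CPM, was that of OC replicate 2 at 17.2 M reads, and CC replicate 3 at 9.05 M reads had 4.20 CPM. These intervals cover counting error only. Within groups, the slope of log2(CPM + 1) on log2 depth was -0.36 for miR-222-5p (SE 0.165, limma unadjusted p = 0.0561, adjusted p = 0.246), and 0.10 at the median of all rows. For miR-221-5p and miR-222-3p the slope was 0.00 in absolute size to 2 decimals, and for miR-221-3p it was 0.15 (SE 0.0911). Members passing for this slope were 0 of 4, against 0% of all rows, and 0 of 4 had a limma unadjusted p under 0.05, against 21.2% of all rows. With depth in the model the maternal log2 change of miR-222-5p was -0.26 (SE 0.185, limma adjusted p = 0.759), and in OC against CC it was -0.32. The part of depth in the difference was not tested beyond this.

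**Figure D3:**
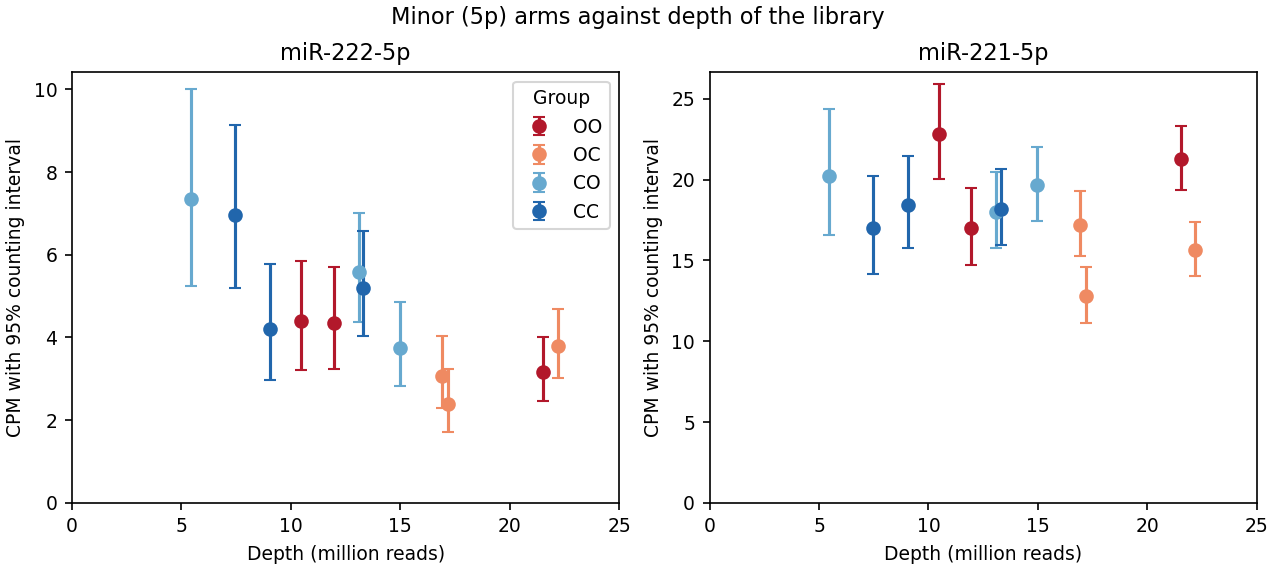
Level of the minor arms (CPM, with 95% exact Poisson intervals) against library depth in M reads, 1 point per library, coloured by group. miR-222-5p lies at 7.34 CPM in the shallowest library at 3.79 CPM in the deepest and lowest, at 2.38 CPM, in OC replicate 2. miR-221-5p lies between 12.8 and 22.8 CPM.

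Where mother and son both ate the obesogenic diet, in OO against CC, miR-222-3p averaged 163 ± 37.8 CPM in OO and 118 ± 8.31 CPM in CC (SD, n = 3 each). The log2 change was 0.45 (SE 0.160, 95% interval 0.10 to 0.80, limma unadjusted p = 0.0166, adjusted p = 0.288), and 0.27 without OO replicate 3 (limma adjusted p = 0.614). Its 3 OO libraries lay above its 3 CC libraries, as was so for 14% of all rows, while 8.03% lay wholly lower. miR-221-3p, miR-221-5p and miR-222-5p had log2 changes of 0.18, 0.17 and -0.36. That of miR-221-5p was 0.08 without OO replicate 3 and 0.29 without OO replicate 1, and that of miR-222-5p was -0.20 without CC replicate 2, -0.24 without OO replicate 2 and -0.18 with depth in the model. With depth in the model miR-221-3p stood at 0.10. Again 0 of 4 members passed, against 0.259% of all rows, and 1 of 4 had a limma unadjusted p under 0.05, against 12.2% of all rows.

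**Figure D4:**
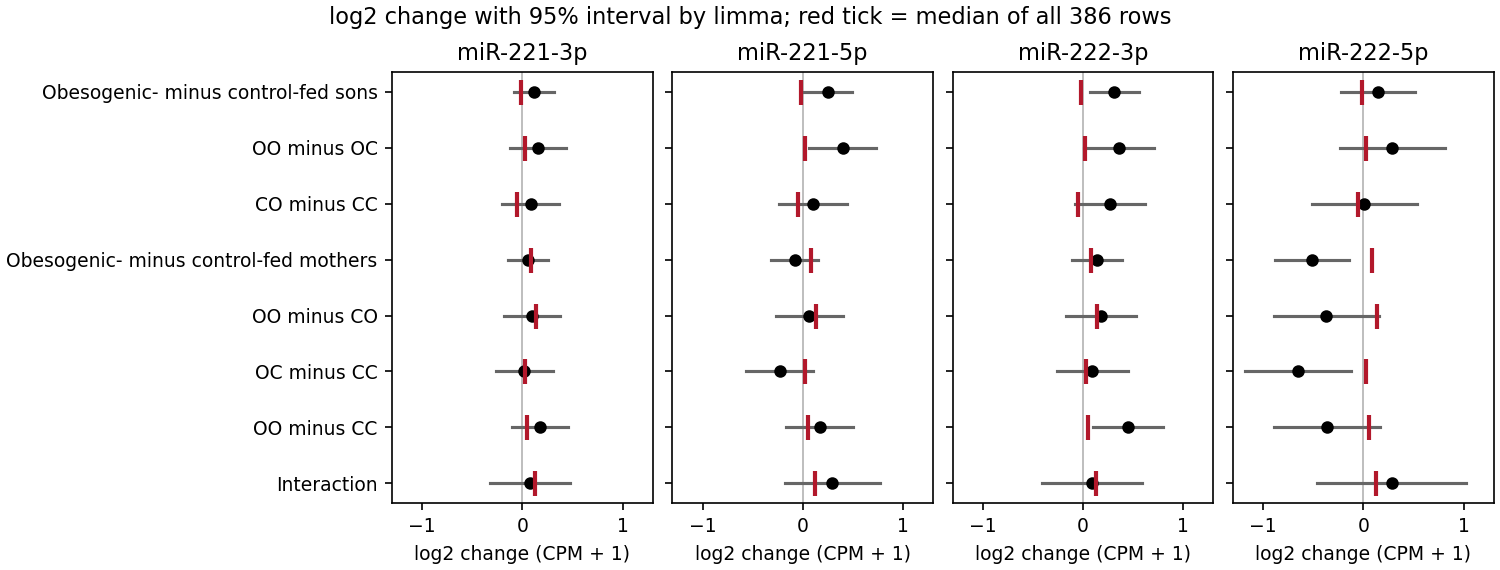
log2 change on the scale of CPM + 1 (points) with 95% limma intervals (lines) for each arm in the 8 contrasts, the group with more obesogenic exposure minus the other, or for the interaction OO minus OC less CO minus CC. The red tick is the median over all 386 rows. Unadjusted intervals lie wholly above 0 for miR-222-3p in 3 contrasts, among them OO minus CC at 0.45, and for miR-221-5p in 2, and wholly below 0 for miR-222-5p in 2.

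Ordered by group mean, miR-221-3p and miR-222-3p ran OO, CO, OC and CC, from high to low. miR-221-5p ran OO, CO, CC and OC, and miR-222-5p ran CO, CC, OO and OC. In none of these orders did neighbouring groups separate, since the ranges of their libraries overlapped at each of the 3 steps for each of the 4 members. Neighbours were set by these same means, and the share over all rows was not counted. Groups further apart did separate, with OO above OC and CC for miR-222-3p and OC below CC for miR-222-5p. The group means of miR-221-3p spanned 427 ± 37.5 CPM in OO to 376 ± 11.3 CPM in CC (SD, n = 3 each).

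The balance between the arms of a hairpin was then compared within each library. The scaling total cancels in the ratios of CPM given here, but not in the fitted values further on, which are differences of log2(CPM + 1) and understate the change where the 5p arm is low. The level of the 3p arm of miR-221 was 19.9 to 22.6 times that of its 5p arm in OO, 21.0 to 28.2 times in OC, 17.8 to 23.8 times in CO and 20.0 to 21.8 times in CC. For miR-222 the ratio of 3p to 5p was 32.0, 45.6 and 47.1 times in OO, 31.6, 54.0 and 41.5 times in OC, 26.8, 41.3 and 16.7 times in CO, and 21.8, 18.3 and 26.7 times in CC. The miR-222 ratios of obesogenic-fed and control-fed mothers overlapped, through CO replicate 2 at 41.3. Ordered by the mean log2 ratio of 3p to 5p on the scale of CPM + 1, miR-222 ranked 16 and miR-221 ranked 19 of the 99 hairpins with both arms listed. In 48 of the 99 the 3p arm was the higher one.

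For the mother's diet the log2 ratio of miR-222 on the scale of CPM + 1 was 0.65 higher with obesogenic-fed mothers (SE 0.190, 95% interval 0.24 to 1.06), with a limma unadjusted p of 0.00437 and an adjusted p of 0.433 over the 99 hairpins. With a pseudocount of 0.25 it was 0.73. The ratio of CPM itself averaged 42.0 ± 8.85 with obesogenic-fed and 25.3 ± 8.90 with control-fed mothers (SD, 6 libraries each). That of miR-221 had a log2 difference of 0.14 (SE 0.108, limma adjusted p = 0.739). Neither of these hairpins passed, against 0% of all 99, and miR-222 alone of this pair had a limma unadjusted p under 0.05, against 6.06% of the 99. Without CO replicate 2 the value for miR-222 was 0.79, with a limma adjusted p of 0.0414. Without CO replicate 3 it was 0.50, with a limma adjusted p of 0.492. With depth in the model, a setting chosen after seeing the data, it was 0.40 (SE 0.216, limma adjusted p = 0.733).

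In OC against CC the log2 ratio of miR-222, again on the scale of CPM + 1, was 0.75 higher (SE 0.268, limma adjusted p = 0.555), and it was 0.81 higher in OO than in CC (SE 0.268, limma adjusted p = 0.238). In both comparisons the miR-222 ratios did not overlap, with the obesogenic-exposed group higher, as was so for 6.06% of the 99 hairpins in OC against CC and for 9.09% in OO against CC. In OO against CO it was 0.55 (SE 0.268, limma adjusted p = 0.374), with 0.26 without CO replicate 3 and 0.83 without CO replicate 2. For the son's diet the log2 ratio differed by 0.17 for miR-222 (SE 0.190) and by -0.13 for miR-221 (SE 0.108), with limma adjusted p of 0.751 and 0.676. The interaction was -0.19 for miR-222 (SE 0.379, limma adjusted p = 0.825) and -0.22 for miR-221 (SE 0.217, limma adjusted p = 0.812). In none of the 8 contrasts did a hairpin of the 99 pass. A limma unadjusted p under 0.05 was also reached by miR-222 in OC against CC, against 6.06% of the 99, and in OO against CC, against 10.1%. Neither hairpin reached it for the son's diet (8.08% of the 99), in CO against CC (8.08%), in OO against OC (2.02%), in OO against CO (8.08%) or in the interaction (3.03%). The ratios of miR-222 overlapped in CO against CC, OO against OC, OO against CO and over pooled diets, and those of miR-221 in every comparison. For the 99 hairpins, the wholly higher and wholly lower shares were 6.06% and 6.06% in CO against CC, 3.03% and 4.04% in OO against OC, 5.05% and 8.08% in OO against CO, 1.01% and 0% for the mother's diet, and 0% and 0% for the son's.

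The main arms, which share the seed, were then set against each other. The level of miR-222-3p divided by that of miR-221-3p was 0.363, 0.326 and 0.455 in OO, 0.282, 0.357 and 0.353 in OC, 0.399, 0.331 and 0.341 in CO, and 0.291, 0.344 and 0.304 in CC. It averaged 0.369 ± 0.0499 over obesogenic-fed sons and 0.322 ± 0.0334 over control-fed sons (SD, 6 each), and the sets overlapped. The sum of the arms with seed GCUACAU was 566 ± 68.0 CPM over obesogenic-fed sons and 500.5 ± 22.5 CPM over control-fed sons (SD, 6 each). Neither of these derived values was tested. Across the 12 libraries the log2 levels of miR-221-3p and miR-222-3p had a Pearson r of 0.62 (permutation p = 0.0236, adjusted p = 0.1417 over 6 pairs of members) and a Spearman rho of 0.50 (permutation p = 0.104, adjusted p = 0.622). Without the 2 libraries farthest from the median of miR-221-3p the r was 0.19. Leaving out the farthest values narrows the range and so tends to lower r, and what the relation rested on cannot be told from this. For the arms of 1 hairpin r was 0.53 for miR-221 (permutation p = 0.0782, rho 0.37, permutation p = 0.234, r 0.29 without the 2 farthest libraries). For the arms of miR-222 it was -0.09 (permutation p = 0.789, rho -0.16, permutation p = 0.618, r -0.11 without the 2 farthest). Adjusted over the 6 pairs, no r had a p under 0.1417 and no rho one under 0.622. The permutations ran over all 12 libraries regardless of diet group, so these values mix differences between groups with those within groups.

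**Figure D5:**
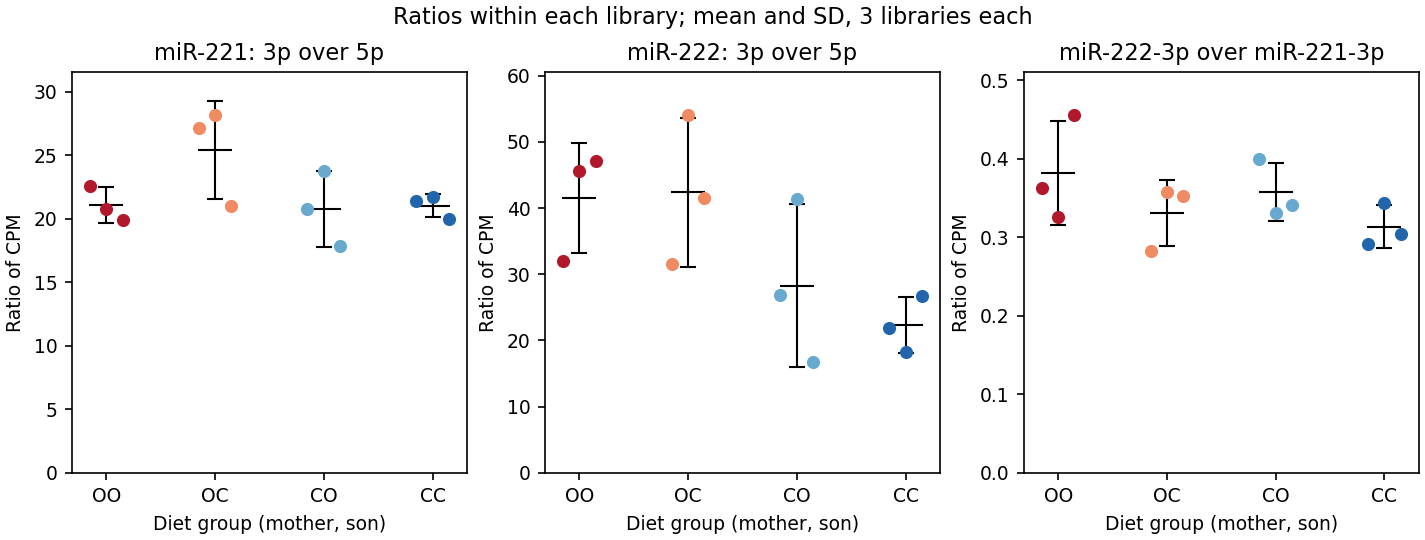
Ratios of CPM within each library by diet group, 1 point per library, with the mean and SD over 3 libraries. The 3p over 5p ratio of miR-222 lies between 31.6 and 54.0 in OO and OC and between 16.7 and 41.3 in CO and CC, and the ratio of miR-222-3p to miR-221-3p is highest in OO replicate 3, at 0.455.

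Among the 382 other rows, those that varied most like miR-222-3p over the 12 libraries were miR-365-3p, miR-3057-5p and miR-149-5p. Their Pearson r on the log2 scale was 0.96, 0.91 and 0.90, against a median of 0.15 over all 382, and all values share the same libraries and scaling. Without the 2 libraries farthest from the median of miR-222-3p, r was 0.84, 0.70 and 0.57. miR-365-3p measured 161 to 238 CPM in OO, 153 to 162 CPM in OC, 154.6 to 186 CPM in CO and 147 to 151 CPM in CC. The rows most like miR-221-3p were miR-802-5p (r = 0.85), miR-582-3p (0.79) and miR-378a-5p (0.79), against a median of 0.26. Without the 2 libraries farthest from the median of miR-221-3p, r was 0.70, 0.69 and 0.70. miR-802-5p, a miRNA known from obese mouse liver and glucose metabolism, ranged from 293 to 918 CPM in OO, 272 to 442 CPM in OC, 175 to 620 CPM in CO and 237 to 447 CPM in CC. Since these rows were picked as the most alike, no p is given.

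Markers of the cell types that a liver holds were described beside the members. The 5 hepatocyte miRNAs, led by miR-192-5p, summed to between 341660 and 413491 CPM in every library. The 2 endothelial miRNAs, led by miR-126-5p, summed to 24420 to 28052 CPM in OO, 23722 to 24653 CPM in OC, 15584 to 22984 CPM in CO and 24304 to 27100 CPM in CC. The 7 leukocyte miRNAs summed to 3097 to 3449 CPM in OO, 3009 to 4647 CPM in OC, 2380 to 3087 CPM in CO and 2870 to 3562 CPM in CC. The 5 mesenchymal and stellate cell miRNAs, led by miR-143-3p, ranged from 33759 to 36736 CPM in OO, 36127 to 39666 CPM in OC, 36918 to 46178 CPM in CO and 31521 to 48309 CPM in CC. The 4 erythroid miRNAs summed to 2943 to 4532 CPM in OO, 2950 to 5242 CPM in OC, 4252 to 8999 CPM in CO and 2862 to 4255 CPM in CC. The 5 miRNAs of biliary and other epithelium, led by miR-200b-3p, were the scarcest list at 396 to 892 CPM over the 12 libraries. No value of any row was 0, so this held for the markers too, and 0 of the markers passed limma's test in any of the 8 contrasts. Of all rows 0% to 0.777% passed in a contrast, so 0 calls among so few markers say little about them. For the son's diet, the median log2 change was -0.02 for the hepatocyte, -0.11 for the endothelial, -0.18 for the leukocyte, 0.10 for the mesenchymal and stellate, 0.16 for the erythroid and 0.19 for the biliary list, beside -0.02 for all rows. For the mother's diet these medians were, in the same order, -0.10, 0.14, 0.18, 0.20, -0.29 and -0.06, beside 0.08 for all rows. The part of these cells in the values of the 4 members was not tested.

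Other miRNAs of the processes in which miR-221 and miR-222 are studied gave no call. Over all rows the share passing was also low, from 0% to 0.777% by contrast, so 0 calls say little about these lists. Of 16 fibrosis and steatohepatitis miRNAs, led by miR-21a-5p, 0 passed limma's test in any of the 8 contrasts. Their median log2 change for the son's diet was 0.06, with 9 positive and 7 negative. For the mother's diet it was 0.13, with 13 positive and 3 negative, beside a median of 0.08 for all rows. How many of all rows were positive was not counted. Of 12 growth and cell cycle miRNAs 0 passed in any contrast, with a median of -0.13 for the son's diet and 0.05 for the mother's. For the mother's diet 7 of these were positive and 5 negative. Of the 34 other rows encoded only on chromosome X, led by miR-351-5p, 0 passed in any contrast. Their median was 0.02 for the son's diet and 0.09 for the mother's, beside -0.02 and 0.08 for all rows. For the mother's diet 28 of these were positive and 6 negative.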

How the data were processed

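The authors deposited 1 table of CPM for 386 mature miRNA rows in 12 libraries. The submitters' processing notes name Bowtie 1.2.3. Not given in the sources used here are the build, the miRNA reference and how multi-mapping reads were treated. Libraries were matched to columns by the column number in each sample description, and replicate numbers follow accession order and pair nothing. Within each library, 100% of values fell on whole reads of 1 fixed size (tolerance 0.001 reads), and that size gave the depth. Columns summed to 0.866% to 1.17% above the CPM total. The CPM were tested as deposited, and no count model was fitted to the recovered reads.

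Differences were tested with limma 3.58.1 (R 4.3.3) over all 386 rows, on log2(CPM + 1), with no filter, a mean-variance trend, 1 mean per group and 8 two-sided contrasts, adjusted by Benjamini-Hochberg over all rows within each. An adjusted p under 0.05 passed. Arm ratios were fitted likewise over 99 hairpins. Correlations used 100000 resamples. The fit was checked on simulated data with planted changes far larger than those of the members. That check does not tell its power for changes of their size. Python 3.11.15, pandas 2.3.3, numpy 2.4.6, scipy 1.17.1 and matplotlib 3.10.9 did the rest. Sequences are from RefSeq, where 322 of the 386 rows matched by name. Members, lists and tests were chosen with earlier results of these data known. The named rows were all members, the 3 rows most like each 3p arm, and the most abundant row of a list.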

Additional observations from a re-analysis of the deposited data

Results flagged for a closer look

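In the 6-library sets of the averaged comparisons, 4 members and both arm ratios gave 24 sets, and in 2 of them 1 library stood apart by Dixon's ratio. Chance flags about 1 in 20 such sets at each test. miR-221-3p reached 467 CPM in CO replicate 2, above the other 5 sons of control-fed mothers. miR-222-3p reached 207 CPM in OO replicate 3, above the other 5 sons of obesogenic-fed mothers.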

How the results depend on the processing

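No member passed in any contrast under any alternative run, which were pseudocounts of 0.25 and 5, a minimum mean of 10 CPM (miR-222-5p and its arm ratio drop out), TMM and median-of-ratios factors, depth as a covariate, sample quality weights, the compared libraries alone, and leaving out each library. The smallest limma adjusted p was 0.0689, for miR-222-3p and the son's diet with TMM factors. The sample quality weights, estimated over all rows, were lowest for CO replicate 3, at 0.161, and OO replicate 3, at 0.392. For the arm ratios, where depth as a covariate was added after seeing the data, the count for the mother's diet ranged from 0 to 1 on leaving out 1 library, and was 0 in all other contrasts and settings.

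Counts over all rows ranged from 3 to 12 for the son's diet, 1 to 10 for CO against CC, 0 to 4 for OO against OC, 0 to 1 for the mother's diet, 0 to 2 for OO against CO, 1 to 4 for OO against CC and 0 to 1 for the interaction. TMM factors moved the median log2 change of all rows by 0.11 in CO against CC, -0.14 in OO against CO and -0.14 in the interaction, and median-of-ratios factors by -0.12 in both of these last contrasts. Signs of uncalled log2 changes turned as follows. With TMM factors they were -0.023 for miR-221-3p and the mother's diet, -0.061 for miR-221-3p and -0.085 for miR-221-5p in OO against CO, and -0.076 for miR-221-3p and -0.064 for miR-222-3p in the interaction. With median-of-ratios factors the same 5 were -0.014, -0.037, -0.063, -0.047 and -0.036. With depth as a covariate miR-221-3p was -0.045 for the mother's diet and -0.12 in OC against CC, and the miR-221 arm ratio -0.036 in OO against CO and -0.069 in OO against CC. With sample weights miR-222-5p was -0.084 in CO against CC, miR-221-3p -0.0033 in OC against CC, and miR-222-3p -0.012 in OO against CO and -0.11 in the interaction.

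Leaving out 1 library gave -0.034 to 0.15 for miR-221-3p and -0.19 to 0.22 for miR-222-5p in CO against CC, -0.058 to 0.060 for miR-221-3p in OC against CC, and -0.018 to 0.18 for miR-221-5p and -5.16e-04 to 0.28 for miR-222-3p in OO against CO. For miR-222-3p the interaction ran from -0.093 to 0.19. The miR-221 arm ratio ran from -0.12 to 0.083 in CO against CC, -0.073 to 0.13 in OO against CO and -0.036 to 0.046 in OO against CC. That of miR-222 ran from -0.016 to 0.56 in CO against CC, -0.086 to 0.23 in OO against OC and -0.49 to 0.086 in the interaction. The causes were not tested. The planned edgeR and DESeq2 fits on recovered reads were not run. The values were whole multiples of 1 step per library, but the smallest value often stood for several reads, so the recovery missed the criterion set for count tests. No paired analysis was possible because replicate numbers follow accession order and tie no libraries together. Depth limits miR-222-5p most, at 38 to 84 reads a library.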
